A study of Homo sapiens with 5 samples.

Results

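Binding of ATF3 and p53 was described at 9 genes of epithelial-mesenchymal transition (EMT), out of 20136 protein-coding genes in the annotation. The set was CDH1 as the epithelial gene and CDH2, VIM, FN1, SNAI1, SNAI2, ZEB1, ZEB2 and TWIST1 as the 8 mesenchymal genes. A peak was assigned to a gene if at least 1 base lay in its region. The region ran from 20 kb upstream of the transcription start site (TSS) of the gene record to the end of that record. The regions spanned from 24.1 kb (SNAI2) to 265.1 kb (CDH2). Of the 33966 peaks in ATF3-Ctrl and the 70702 peaks in ATF3-CPT, 20 and 34 peaks were found there. Peak lists hold no expression values, so whether the cells expressed these genes could not be checked.

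ChIP-seq was performed in HCT116 cells, a human colorectal cancer line of epithelial origin, and each condition was represented by 1 unreplicated library. The anti-ATF3 libraries came from wild-type cells given only the solvent DMSO (ATF3-Ctrl), from wild-type cells exposed to 1.5 μM of camptothecin for 4 h (CPT, a topoisomerase I inhibitor that damages DNA; ATF3-CPT), and from ATF3-KO cells given DMSO. The ATF3-KO line was made by gene targeting and is 1 clone. The anti-p53 libraries came from p53 wild-type cells after the same CPT treatment (p53-CPT) and from p53-knockout cells given DMSO (p53-KO), so those 2 libraries differ in genotype and in treatment, which cannot be told apart. All chromatin was fixed with 1 mM of DSG for 45 min and then with 1% formaldehyde for 10 min, cut to about 500 bp and incubated with 2 μg of antibody. The ATF3 libraries held 12947516 (ATF3-Ctrl), 15457013 (ATF3-CPT) and 12820520 tags (ATF3-KO), against 3169743 in p53-CPT and 1984941 in p53-KO.

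EMT is the programme by which cells that adhere to their neighbours lose these contacts and become motile. E-cadherin, the product of CDH1, holds epithelial cells together at adherens junctions. Repressors of the Snail and ZEB families bind E-boxes of the CDH1 promoter and shut the gene off, TWIST1 promotes the same switch, while N-cadherin, vimentin and fibronectin mark the mesenchymal state. ATF3 is a stress-induced factor with a basic leucine zipper. It binds the AP-1 site TGACTCA, read as TGAGTCA on the other strand, as a heterodimer with JUN proteins, and the ATF/CRE site TGACGTCA.

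The sequences under the peaks that carried the main values are shown first, since the peaks differed in which of these sites they held. All are from hg19, plus strand, with exact AP-1 or ATF/CRE cores in capitals. Where a window held no exact core, capitals mark the 8 bases that differ from TGACGTCA at 1 position. The strongest site in the set lay in intron 2 of CDH1, 19.2 kb from the TSS, and its windows in both lists are given because they were shifted by a few bases. At VIM, 23 bases around the core in the promoter peak are given, together with the peak 11.9 kb upstream. At FN1, the intron 13 peak held a pair of AP-1 cores and the promoter peak an ATF/CRE core.
CDH1 intron 2 site in ATF3-Ctrl, chr16:68790292-68790418: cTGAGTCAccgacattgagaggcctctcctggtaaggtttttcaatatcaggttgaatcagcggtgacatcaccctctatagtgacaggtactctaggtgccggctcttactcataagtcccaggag
CDH1 intron 2 site in ATF3-CPT, chr16:68790302-68790426: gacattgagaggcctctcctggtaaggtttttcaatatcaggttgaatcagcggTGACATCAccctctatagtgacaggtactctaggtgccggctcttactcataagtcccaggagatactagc
CDH1 intron 2 site at 23.7 kb in ATF3-CPT, chr16:68794845-68794969: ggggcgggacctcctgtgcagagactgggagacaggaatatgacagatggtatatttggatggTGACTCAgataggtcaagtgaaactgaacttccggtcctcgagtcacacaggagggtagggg
VIM promoter core, chr10:17270517-17270539: gggcgcggTGAGTCAccgccggt
VIM upstream site in ATF3-CPT, chr10:17258318-17258442: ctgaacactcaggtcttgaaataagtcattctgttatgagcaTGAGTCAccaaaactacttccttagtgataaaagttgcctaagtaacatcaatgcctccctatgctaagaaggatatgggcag
FN1 intron 13 site in ATF3-CPT, chr2:216275707-216275831: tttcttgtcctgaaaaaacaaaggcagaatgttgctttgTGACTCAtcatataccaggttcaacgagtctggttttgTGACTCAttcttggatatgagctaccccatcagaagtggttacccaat
FN1 promoter site in ATF3-CPT, chr2:216300931-216301055: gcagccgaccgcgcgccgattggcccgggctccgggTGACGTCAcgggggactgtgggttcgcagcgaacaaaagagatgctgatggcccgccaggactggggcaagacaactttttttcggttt

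At the transcription factor genes, the strongest ATF3-CPT peaks of ZEB1 and TWIST1 and the peak in intron 2 of SNAI1 each held 1 AP-1 core. The ATF3-CPT peak of ZEB2 in intron 4 held an octamer with 1 mismatch only.
ZEB1 intron 1 site in ATF3-CPT, chr10:31642624-31642748: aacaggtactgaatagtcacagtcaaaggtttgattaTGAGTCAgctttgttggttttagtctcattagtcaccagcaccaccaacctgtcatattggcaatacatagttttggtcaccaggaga
TWIST1 downstream site in ATF3-CPT, chr7:19140307-19140431: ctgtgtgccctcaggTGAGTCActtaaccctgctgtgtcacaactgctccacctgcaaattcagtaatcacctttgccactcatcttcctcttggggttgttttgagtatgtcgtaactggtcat
SNAI1 intron 2 site in ATF3-CPT, chr20:48604012-48604136: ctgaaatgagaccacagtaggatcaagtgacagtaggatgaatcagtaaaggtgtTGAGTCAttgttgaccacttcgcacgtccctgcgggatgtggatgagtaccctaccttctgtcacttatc
ZEB2 intron 4 site in ATF3-CPT, chr2:145164963-145165087: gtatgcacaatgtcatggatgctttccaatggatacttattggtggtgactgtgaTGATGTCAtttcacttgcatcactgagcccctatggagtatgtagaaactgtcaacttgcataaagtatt

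To learn how ATF3 binding at the EMT genes stood before and after CPT, peaks were counted in each region. Before CPT, 7 of 9 regions held at least 1 ATF3 peak, where 65.2% of all protein-coding genes did. After CPT, 8 of 9 did, against 81.0% of all genes. The number of peaks went from 5 to 6 at CDH1, from 4 to 6 at VIM, from 1 to 6 at FN1, from 0 to 6 at SNAI1 and from 4 to 5 at ZEB1. It stayed at 1 at ZEB2 and 2 at TWIST1, went from 3 to 2 at SNAI2, and CDH2 had no peak in either list. Thus 5 of 9 genes had more peaks in ATF3-CPT, and 63.4% of all genes did. These 3 counts of genes were close to their background.

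**Figure D1:**
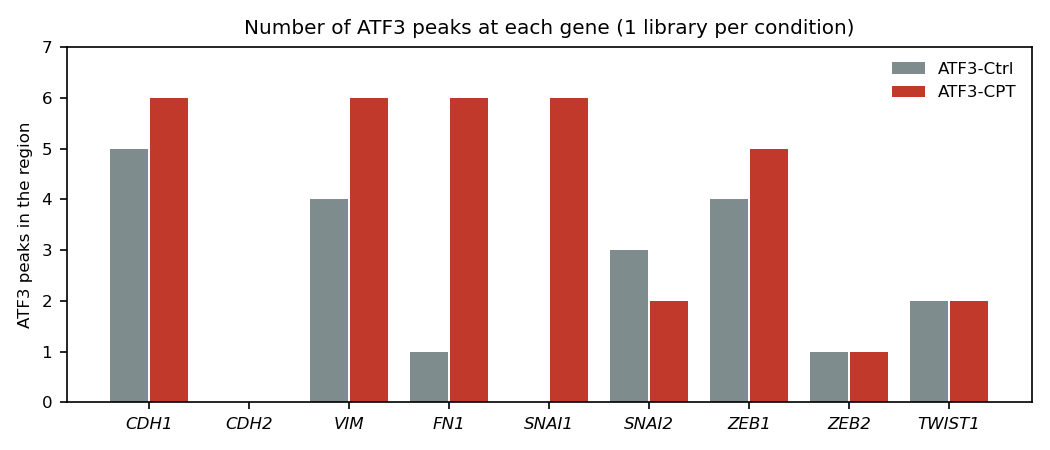
Number of ATF3 peaks from 20 kb upstream of the TSS to the gene end for each of the 9 genes, with grey bars for ATF3-Ctrl and red bars for ATF3-CPT (1 library each, no error bars). SNAI1 went from 0 to 6 peaks and FN1 from 1 to 6, while CDH2 had none in either list.

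Within 2 kb of the TSS, 3 of 9 genes (VIM, SNAI2 and ZEB1) had an ATF3-Ctrl peak, against 35.9% of all genes. After CPT, FN1 and SNAI1 joined them, which made 5 of 9 against 50.5%. The SNAI2 peak was within 2 kb of the gene record's TSS only. It lay 2142 bp (ATF3-Ctrl) and 2175 bp (ATF3-CPT) upstream of the start of the annotation's canonical transcript. CDH1 had no ATF3 peak within 2 kb of its TSS in either list, and its nearest peak lay 4.6 kb downstream, so no peak was detected over the promoter region that the Snail and ZEB repressors bind. Peaks with a score below 9 were in neither list, so weaker binding was not detectable.

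Peaks of both ATF3 lists were next matched by an overlap of at least 1 bp. A counterpart in ATF3-CPT was found for 17 of the 20 ATF3-Ctrl peaks, and for 27104 of the 33966 ATF3-Ctrl peaks in the genome. Of the 34 ATF3-CPT peaks, 17 had no counterpart. This share was not counted over the genome, where the ATF3-CPT list is the longer one with 70702 peaks. Among the matched sites, 11 of 17 had more tags in ATF3-CPT after scaling to library totals and none had fewer, at a Benjamini-Hochberg adjusted p of 0.05 by an exact binomial test. Over all 27104 matched sites in the genome, 44.0% were called higher and 2.82% lower. The median log2 ratio was 1.16 at the 17 sites and 0.84 over all sites. The test compares 2 libraries and not the conditions, and its intervals cover counting error only. About 5.6% of tags lay in peaks in ATF3-Ctrl and 12.76% in ATF3-CPT, which scaling to library totals does not adjust for. Whether the higher tag counts reflect this difference between 2 single libraries was not tested. The median ratio of all matched sites was then set to 1, so that changes were read relative to the general difference between the libraries. With this scaling, 1 of the 17 sites was called higher and 1 lower.

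**Figure D2:**
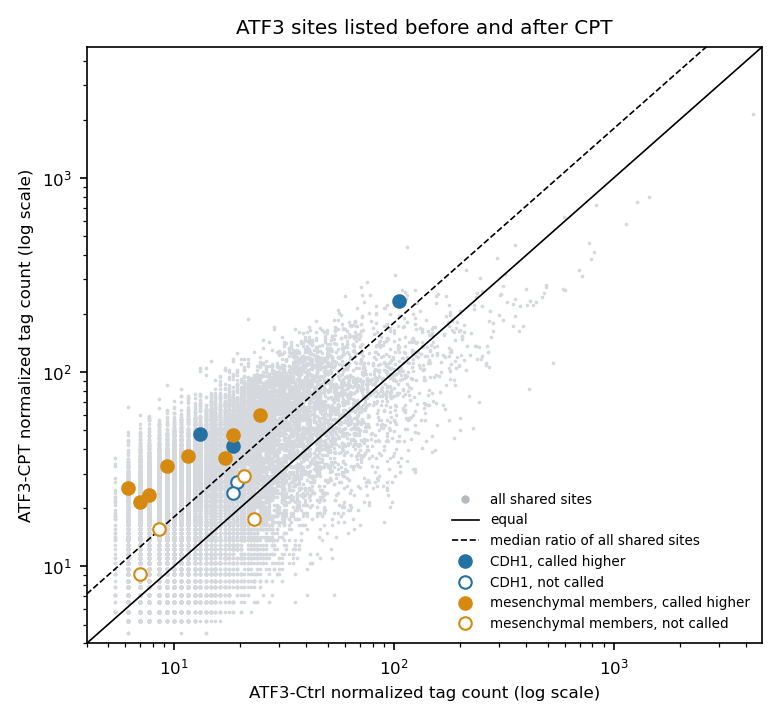
Normalized tag count (tags per 10000000) in ATF3-Ctrl against ATF3-CPT for the 27104 sites found in both lists (grey, log axes), with the 5 sites of CDH1 in blue and the 12 of mesenchymal genes in orange, filled where called higher. The solid line marks equal values and the dashed line the median ratio of all sites; 3 of 5 blue and 8 of 12 orange points are filled, and 1 orange point (VIM, 23.2 against 17.5) lies under the solid line.

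CDH1 was marked by a cluster of ATF3 sites within its second intron. The 5 sites found in both lists lay 4.6, 5.6, 7.7, 19.2 and 23.7 kb downstream of the TSS, and the single additional ATF3-CPT peak lay in the same intron at 63.1 kb, with a normalized tag count of 7.1 and nearer to the TSS of TANGO6. The site at 19.2 kb had a normalized tag count of 105.0 (95% exact Poisson interval 88.1 to 124.2) in ATF3-Ctrl and 231.0 (207.6 to 256.2) in ATF3-CPT. This was a 2.20-fold difference between the libraries (95% interval 1.8 to 2.70, adjusted p = 2.85e-14, exact binomial test). Only 313 peaks of the whole ATF3-Ctrl list and 26 of the ATF3-CPT list had a higher peak score than its 93 and 189.

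The site at 23.7 kb went from 13.1 to 47.9, the largest ratio at CDH1 (3.65-fold, 2.13 to 6.59, adjusted p = 1.35e-06, exact binomial test). It was also the 1 site of the set that was still called higher relative to the median site. The site at 7.7 kb went from 18.5 to 41.4 (2.23-fold, adjusted p = 0.00196, exact binomial test). The values at 4.6 kb were 19.3 and 27.2, and those at 5.6 kb were 18.5 and 23.9, differences within counting error (adjusted p of 0.281 and 0.502, exact binomial test). None of the 5 sites overlapped an ATF3-KO peak. Of the 27104 matched sites in the genome, 25432 were left when peaks overlapping an ATF3-KO peak were dropped.

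The sequences of the CDH1 sites differed. In the strongest site, the AP-1 core lay 59 bp from the centre of the ATF3-Ctrl window and outside the ATF3-CPT window. An octamer of the ATF/CRE type with the substitution G5A (the core's base, its position from 1 at the 5′ end, then the site's base) lay 4 bp from the centre in both. The site at 23.7 kb had an AP-1 core 4 bp from the centre of its ATF3-CPT window. The sites at 5.6 and 7.7 kb held neither an exact core nor an octamer with 1 mismatch.

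CDH2, which encodes the N-cadherin that replaces E-cadherin in mesenchymal cells, had no peak in any of the 5 lists across its 265.1 kb. The nearest ATF3 peaks lay 88.8 kb beyond the end of the gene in both lists, with normalized tag counts of 10.0 and 7.8. On the upstream side they were 167.2 kb in ATF3-Ctrl and 261.7 kb in ATF3-CPT beyond the region's edge, which lies 20 kb upstream of the TSS. The 2 cadherin genes thus differed, with 5 and 6 ATF3 peaks listed at CDH1 and none at CDH2. They are single genes, and no test was made between them.

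VIM, which encodes the intermediate filament protein vimentin, held 4 ATF3-Ctrl and 6 ATF3-CPT peaks in only 29.4 kb. Its 13.6 and 20.4 peaks per 100 kb were higher than those of 98.6% of all genes in both lists. The promoter peak in exon 1, 0.3 kb from the TSS, had a normalized tag count of 24.7 (16.9 to 34.9) in ATF3-Ctrl and 60.2 (48.6 to 73.7) in ATF3-CPT, a 2.43-fold difference (adjusted p = 3.6e-05, exact binomial test). The antisense gene VIM-AS1 overlaps the same position. The AP-1 core lay 12 bp from the centre of the ATF3-CPT peak.

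The peaks 11.9 kb and 14.1 kb upstream of VIM were 3.18- and 3.02-fold higher in ATF3-CPT, going from 11.6 to 36.9 and from 7.7 to 23.3 (adjusted p of 8.74e-05 and 0.00328, exact binomial test). The TSS of TRDMT1 was the nearest one to the farther peak. The peak in intron 2, at 2.3 kb, had 23.2 in ATF3-Ctrl and 17.5 in ATF3-CPT, a difference within counting error against library totals (adjusted p = 0.416, exact binomial test). It was the only matched site of the 17 with a ratio below 1, and relative to the median site it was called lower (log2 ratio −1.25, adjusted p = 0.0127, exact binomial test).

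FN1 encodes the matrix protein fibronectin. Its single ATF3-Ctrl peak, in exon 14, had 8 tags and a peak score of 9, the lowest that the list allowed. The same site had 39 tags in ATF3-CPT, and its normalized tag count went from 6.2 to 25.2 (4.08-fold, 1.88 to 10.1, adjusted p = 0.000257, exact binomial test). A second peak in intron 13, at 25.0 kb from the TSS and with the pair of AP-1 cores, appeared in ATF3-CPT only. Its normalized tag count was 38.2 (29.1 to 49.2) and its score of 51 was the highest among the 17 ATF3-CPT peaks with no counterpart. The FN1 promoter peak at 197 bp upstream of the TSS had a normalized tag count of 7.1 and a score of 12, and its ATF/CRE core lay 22 bp from the centre. The other 3 peaks of ATF3-CPT (5.7 kb upstream, 2.3 kb and 44.4 kb downstream) had scores of 9, 10 and 14.

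SNAI1 encodes Snail, a zinc finger repressor of CDH1, and went from no ATF3 peak to 6 within 25.9 kb. The peaks lay 14.0, 12.8, 6.3, 3.8 and 0.2 kb upstream of the TSS and 4.6 kb downstream. All were weak. Their scores ran from 9 to 15, below the median score of 16 of the ATF3-CPT list, and their normalized tag counts were 9.1, 6.5, 8.4, 5.2, 7.1 and 9.1 in that order. An equal normalized tag count in ATF3-Ctrl would have been 6.7 to 11.8 tags. The weakest ATF3-Ctrl peaks of the set, at FN1 and ZEB2, had 8 tags, and the tags of ATF3-Ctrl at positions with no peak are not in the list, so the size of a change at SNAI1 could not be measured. Of the 7004 genes with no ATF3-Ctrl peak, 49 (0.700%) held at least 6 ATF3-CPT peaks, a count that was chosen once the values of SNAI1 had been seen.

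SNAI2 encodes Slug, the relative of Snail, and was the only gene of the 9 with fewer peaks in ATF3-CPT. The peak 1.8 kb upstream of the TSS went from 17.0 (10.6 to 25.7) to 36.2 (27.4 to 47.0) and the peak 4.3 kb upstream from 7.0 to 21.3. Both were called higher, by 2.13-fold and 3.07-fold (adjusted p of 0.00598 and 0.00509, exact binomial test). The former peak held an AP-1 core and the latter an ATF/CRE core. The third ATF3-Ctrl peak, in exon 3 at 2.9 kb and with a normalized tag count of 12.4, had no counterpart in ATF3-CPT. The lower count of peaks at SNAI2 thus stood beside higher tag counts at both peaks that remained.

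ZEB1 and ZEB2 encode zinc finger and homeodomain repressors of CDH1. At ZEB1, a pair of peaks lay at the promoter, 0.1 kb upstream and 0.6 kb downstream of the gene record's TSS, where ZEB1-AS1 overlaps. Both peaks lay upstream of the canonical transcript. They went from 8.5 to 15.5 and from 20.9 to 29.1, differences within counting error (adjusted p of 0.208 and 0.297, exact binomial test). The latter peak overlapped the only ATF3-KO peak in the set, with a normalized tag count of 15.6 (9.5 to 24.1) in ATF3-KO. Over all genes, 11.4% held an ATF3-KO peak. A peak was therefore listed at this site also in cells that lack ATF3, and neither of the promoter peaks held an exact core.

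In contrast, the ZEB1 peak in intron 1 at 35.3 kb, which held an AP-1 core and did not overlap an ATF3-KO peak, went from 9.3 to 33.0 (3.56-fold, 1.87 to 7.34, adjusted p = 0.000107, exact binomial test). The peak in intron 2 at 149.9 kb had 7.0 in ATF3-Ctrl and 9.1 in ATF3-CPT (adjusted p = 0.792, exact binomial test). ZEB2 had 1 weak peak in each list, in intron 2 with a normalized tag count of 6.2 in ATF3-Ctrl and in intron 4 with 6.5 in ATF3-CPT. These peaks lay in different introns and did not overlap. A stronger site lay 6.2 kb beyond the end of the ZEB2 record, with 23.2 in ATF3-Ctrl and 86.0 in ATF3-CPT, and was not counted.

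TWIST1 encodes a basic helix-loop-helix factor that promotes EMT. Its gene record extends far past the canonical transcript, and both of its peaks in each list lay downstream of that transcript. The site 16.9 kb from the TSS went from 18.5 (11.9 to 27.6) to 47.2 (37.0 to 59.4), a 2.55-fold difference (adjusted p = 0.000182, exact binomial test). The ATF3-Ctrl peak at 38.3 kb had a normalized tag count of 24.7, and the ATF3-CPT peak at 38.5 kb had 10.4. These peaks did not overlap, but their centres lay within 200 bp.

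**Figure D3:**
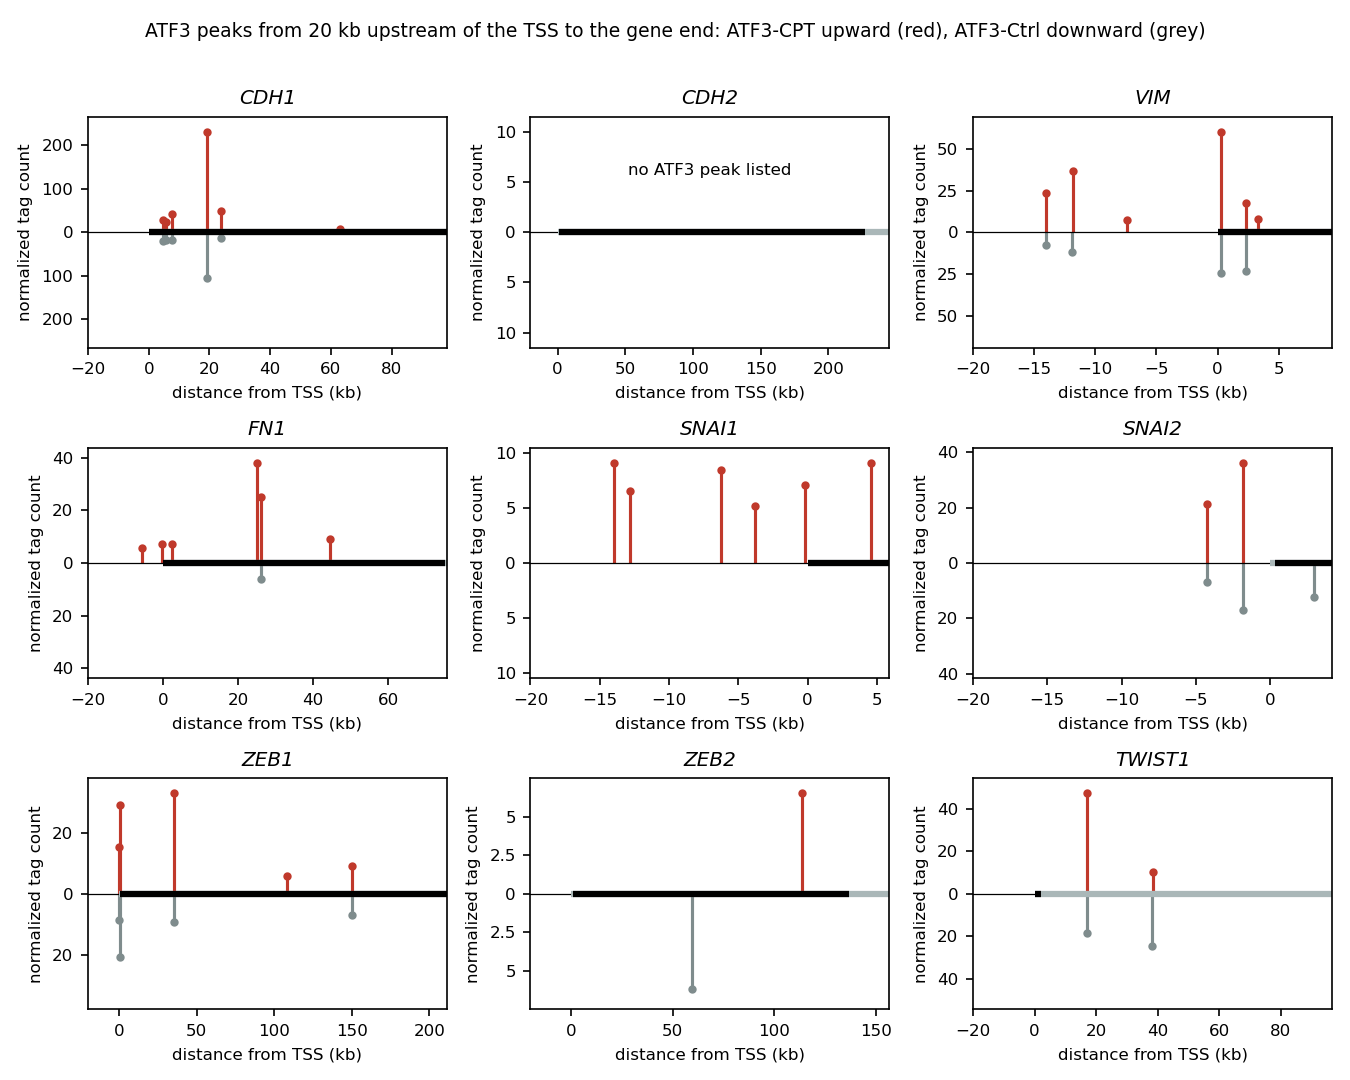
ATF3 peaks along each gene, as distance from the TSS in kb in the direction of transcription (x axis) against normalized tag count (y axis, scaled per gene), with ATF3-CPT drawn upward in red and ATF3-Ctrl downward in grey. The thick black line is the canonical transcript and the grey line the rest of the gene record; the CDH1 site at 19.2 kb, with 105.0 and 231.0, was the highest of the set, and no SNAI1 peak was above 9.1.

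To compare the epithelial gene with the mesenchymal genes, peaks were expressed per 100 kb of region. CDH1 had 4.23 peaks per 100 kb in ATF3-Ctrl and 5.07 in ATF3-CPT, higher than 78.5% and 62.5% of all genes. The 8 mesenchymal genes had medians of 1.38 and 4.22, but individual genes lay on both sides of CDH1, with VIM and SNAI2 above it in both lists. In tag counts, 3 of 5 sites at CDH1 and 8 of 12 sites at mesenchymal genes were called higher, with median log2 ratios of 1.14 and 1.32. With 1 epithelial gene, no test of the difference was possible.

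Further genes known from EMT were therefore counted, 24 epithelial (claudins, keratins, desmosomal proteins and the regulators ESRP1, GRHL2, OVOL1 and others) and 30 mesenchymal (collagens, matrix proteases, further transcription factors and others). All 24 epithelial genes held an ATF3 peak both before and after CPT. Of the 30 mesenchymal genes, 22 held one before and 26 after CPT (73.3% and 86.7%). Over all protein-coding genes, 65.2% and 81.0% did. The median density went from 6.33 to 12.1 peaks per 100 kb at the epithelial genes and from 1.82 to 3.99 at the mesenchymal genes, while it went from 1.63 to 3.81 over all protein-coding genes. The mesenchymal medians were thus close to those of all genes and the epithelial medians above the third quartiles of 3.85 and 7.21. These are descriptions of 1 library each, with no test between the lists. Some of the epithelial genes are neighbours with overlapping regions. Their 93 ATF3-Ctrl and 158 ATF3-CPT peaks, counted gene by gene, were therefore 90 and 152 distinct peaks. Both gene lists were chosen with earlier results of these data known.

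**Figure D4:**
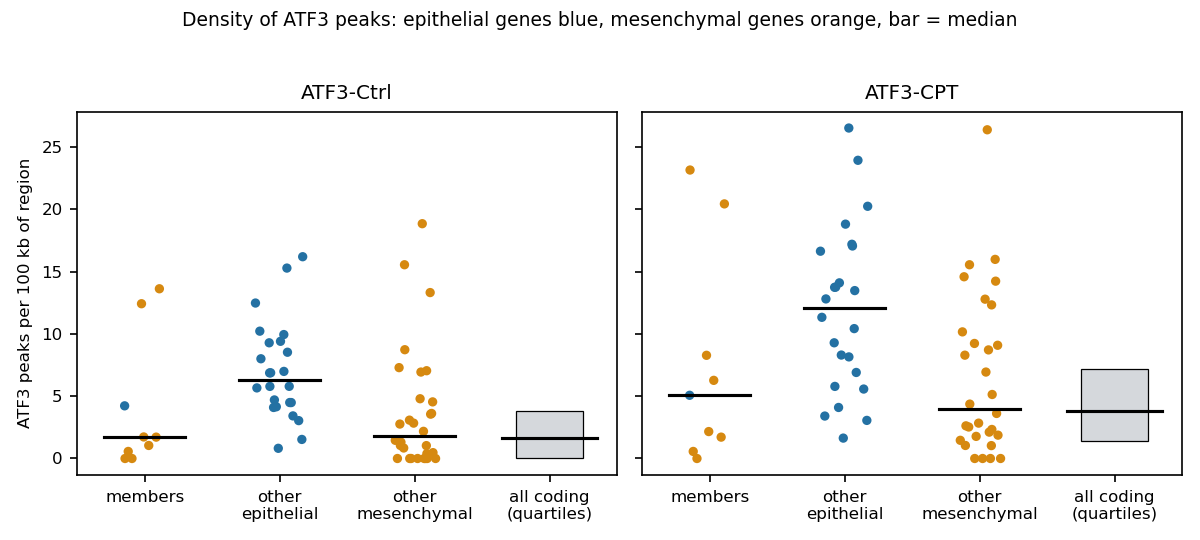
ATF3 peaks per 100 kb of region in ATF3-Ctrl (left) and ATF3-CPT (right), 1 point per gene, with epithelial genes in blue, mesenchymal genes in orange, black bars at medians and a box for the quartiles of all 20136 genes. The blue points of the 24 further epithelial genes have medians of 6.33 and 12.1, and the 30 further mesenchymal genes 1.82 and 3.99.

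Among the further epithelial genes, 20 had more peaks in ATF3-CPT, 3 had equal numbers and 1 had fewer. Among the mesenchymal genes these numbers were 18, 11 and 1, and 63.4% of all genes had more. At sites found in both lists, 41 of 74 were called higher and 0 lower at the epithelial genes, and 29 of 46 higher and 1 lower at the mesenchymal genes, with median log2 ratios of 1.05 and 1.20. Over all matched sites, 44.0% were called higher and 2.82% lower, with a median of 0.84. A promoter peak was found at 16 and then 19 of the 24 epithelial genes, and at 7 and then 14 of the 30 mesenchymal genes, against 35.9% and then 50.5% of all genes. Promoters were taken within 2 kb of the gene record's TSS, which for some genes lay far from the start of the canonical transcript. TJP1 and CTNND1 were not counted, though ATF3-Ctrl peaks lay 71 and 27 bp from their canonical start. KRT8 was counted with ATF3-Ctrl peaks 43768 and 44813 bp from its canonical start.

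The epithelial genes with the most ATF3-CPT peaks were TJP1 (20 peaks, 13 before CPT), a scaffold of tight junctions, CDH3 (15, from 5), which encodes P-cadherin and lies next to CDH1, and the transcription factor gene GRHL2 (11, from 6). The mesenchymal genes with the most were CD44 (14, from 8), a receptor for hyaluronan, the receptor kinase gene AXL (8, from 3) and TGFBI (8, from 4), a matrix protein induced by TGF-β. These counts were not scaled to region length, and TJP1 and GRHL2 had regions of 289.5 and 197.3 kb. Their 6.91 and 5.58 ATF3-CPT peaks per 100 kb lay below the median of 12.1 of the 24 epithelial genes, while CDH3 had 13.5. The CDH3 gene record extends 10177 bp into the CDH1 region, but no peak lay in that stretch.

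Exact AP-1 or ATF/CRE cores were found in 8 of 20 ATF3-Ctrl peaks of the 9 genes, compared to 32.8% of all ATF3-Ctrl peaks. In ATF3-CPT, 13 of 34 held one, compared to 41.9%. Of these, 7 and 11 were AP-1 cores (31.0% and 40.6% of all peaks) and 1 and 2 were ATF/CRE cores (1.93% and 1.41%). A further 3 and 9 peaks held an octamer with 1 mismatch to TGACGTCA as their only match, against 8.3% and 9.4% of all peaks. The octamer was searched after the sequences had been seen. A letter match in a peak does not show that ATF3 contacted it.

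p53 binding was examined last, since p53 is the main responder to CPT and ATF3 can interact with it. The p53-CPT list held 3 peaks in the set, 1 at ZEB1 and 2 at ZEB2, so 2 of 9 genes had one against 21.8% of all genes. The p53-KO list, which shows signal without p53, held 1 peak at ZEB2, against 17.5% of all genes. The strongest of these peaks, 151.4 kb from the ZEB2 TSS, had a normalized tag count of 135.7 (98.2 to 182.7) in p53-CPT and 166.3 (114.4 to 233.5) in p53-KO, with overlapping intervals. The ZEB1 peak in intron 1 at 141.4 kb had 9 tags and the other ZEB2 peak, in intron 2 at 80.0 kb, 6 tags.

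None of the p53-CPT peaks in the set held the p53 consensus with up to 3 mismatches, which 20.3% of all p53-CPT peaks held. All 3 contained a dinucleotide repeat of at least 20 bp, of 52 bp at ZEB1 and of 21 and 44 bp at ZEB2. Such repeats were found in 60.4% of p53-CPT peaks and in 78.6% of p53-KO peaks. No ATF3 peak overlapped a p53 peak at any of the 9 genes. These held only 3 p53-CPT peaks and 1 p53-KO peak, and the share of overlapping peaks over the genome was not counted. Of the further genes, 8 of the 24 epithelial and 14 of the 30 mesenchymal genes held a p53-CPT peak (33.3% and 46.7%, against 21.8% of all genes). A p53-KO peak was held by 3 of the 24 and 8 of the 30 genes (12.5% and 26.7%, against 17.5%). CDH3 and TJP1 held 2 p53-CPT peaks and 1 p53-KO peak each, GRHL2 held 2 in both lists and MMP2 3 in both. AXL and ACTA2 held 1 p53-CPT peak each, 439 and 12 bp upstream of the gene record's TSS, and no p53-KO peak. The ACTA2 record starts at chr10:90751096, far upstream of its canonical transcript, which starts at 90712530. The ACTA2 peak was therefore not at the promoter of the canonical transcript.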

How the data were processed

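The authors aligned reads to hg19 with BWA (version 0.6.1 in the submitters' processing notes) and called peaks per library with HOMER findPeaks (version 4.1) and, per the file headers, without an input library. The signal the authors deposited is HOMER's normalized tag count, scaled to 10000000 tags per library. The score the authors deposited is a whole number without correction for depth, and it can exceed the recovered tags of the same peak. Fold enrichments and p-values over the local region, also deposited by the authors, were not used. The lowest score listed was 9 (ATF3-Ctrl, ATF3-CPT), 11 (ATF3-KO), 7 (p53-CPT) or 6 (p53-KO). A signal of 3 tags equals a normalized tag count of 1.94 to 15.1.

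Genes and TSSs were taken from GENCODE release 44 mapped to GRCh37. Coordinates are as the lists give them, with both ends included. Tags were recovered from normalized tag counts (all whole within rounding) and matched sites, (best-scoring ATF3-CPT peak where several overlapped) were tested by a two-sided conditional exact binomial test against library totals (scipy 1.17.1), with Benjamini-Hochberg adjustment over all 27104 sites (statsmodels 0.14.6). Scripts were tested on simulated data. Groups came from the sample labels. The members and gene lists were chosen with earlier results of these data known. Named were all 9 members, with their highest-scoring peaks, and of the further genes those with most ATF3-CPT peaks and examples with a p53-CPT peak. Alternatives covered region, score, overlap, scaling and the value compared.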

Additional observations from a re-analysis of the deposited data

How the results depend on the processing

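No replicates were available, so no library could be left out. No paired analysis was possible because each condition had 1 library. The count of peaks depended on the score required: with a score of at least 15, 13 ATF3-Ctrl and 20 ATF3-CPT peaks were left at the 9 genes, and with at least 20 there were 10 and 17. With the ATF3-CPT list shortened to its best-scoring peaks, as many as in ATF3-Ctrl, 17 ATF3-CPT peaks were left and SNAI1 had 0. With the median ratio of shared sites set to 1, 1 site was called higher (CDH1, 23.7 kb) and 1 lower (VIM, 2.3 kb). The log2 ratios then fell below 0 at CDH1, to −0.35 at 4.6 kb and −0.48 at 5.6 kb, and at ZEB1, to −0.36 at 0.6 kb and −0.46 at 149.9 kb, none of them called before or after. With peaks paired by centres within 200 bp, chosen after seeing the data, 1 of 18 sites was called lower, at TWIST1. With the score in place of tags, 10 of 17 sites were called higher, and SNAI2 at 1.8 kb was not (adjusted p = 0.0724, exact binomial test). TWIST1 had 0 peaks in both lists when its region ended with the canonical transcript, and ZEB2 had 0 ATF3-CPT peaks when 11 tags were required, a minimum chosen after seeing the data. With 50 kb upstream, SNAI1 had 1 ATF3-Ctrl and 10 ATF3-CPT peaks, and with 5 kb it had 3 ATF3-CPT peaks and VIM 2 and 3 peaks in ATF3-Ctrl and ATF3-CPT.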
